A study of Mus musculus with 16 samples.

Results

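The loop pixels described here were shared by both embryonic stem (ES) cell states of the study, ES cells grown in serum and ES cells grown in 2i, and were low in neural progenitor cells (NPCs). A pixel is a pair of 4 kb bins of a 5C contact map, and each pixel carries the authors' interaction score in every library. Of the 5762 pixels in the authors' classified table, 299 had a score below 26 in both NPC libraries and of 26 or more in all 4 ES libraries, and these 299 are the members. The authors' own class was not used. It placed 275 members in the class of loops of 2i and serum, 15 in the 2i only class and 9 in the serum only class. Because the members were chosen by these 6 scores, their difference between NPCs and ES cells is given as a description, with no test.

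A chromatin loop brings 2 distant stretches of a chromosome, its anchors, close together, and in 5C it appears as a patch of neighbouring pixels with more contacts than their surroundings. CTCF is a zinc-finger protein that binds DNA at many loop anchors, where it can stop the loop-extruding cohesin complex. YY1 is another zinc-finger protein, known to bridge enhancers and promoters in mouse ES cells. The 5C loci were named for Sox2, Oct4, Klf4 and Nanog, transcription factors of the pluripotency network, for Nestin, an intermediate filament of neural progenitors, for Olig1-Olig2, transcription factors of oligodendrocyte precursors, and for a gene desert. Sox2 is active in ES cells and in neural progenitors alike.

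5C amplifies ligation products between chosen HindIII fragments, here at 7 mouse loci. The NPCs came from whole brains of Sox2-eGFP mice (129SvJae x C57BL/6) at postnatal day 1 and were grown as neurospheres, then as attached cells plated at 60000 cells per cm2. The ES cells were the male V6.5 line of the same strain cross, expanded on feeder cells and moved to gelatin, either in serum with LIF or without serum in 2i, where LIF is combined with inhibitors of GSK3 and MEK. YY1 siRNA and control siRNA NPCs came from mice of the same genotype and age, were plated at 20000 cells per cm2, and were treated with 20 nM siRNA for 78 hours. Each of these 5 groups had 2 libraries, and CTCF was mapped by ChIP-seq with 1 library each for NPCs, ES cells in serum and ES cells in 2i. The growth text of the control siRNA libraries names YY1 siRNA as well, so their titles decided the group. Cell type, the Sox2-eGFP allele and cell origin cannot be told apart between NPCs and ES cells. No label tells if the 2 libraries of a group were grown apart, and p-values therefore cover the spread between these libraries alone, which may be technical.

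Libraries held 14698138 to 14887963 counts for NPCs, 25791222 to 26533530 for ES cells in serum and 11784821 to 14201950 for ES cells in 2i. The YY1 siRNA libraries held 4419309 and 12993781 counts and the control siRNA libraries 5792078 and 6251316. Counts are PCR reads without molecular identifiers. Cell identity was not checked, since the files hold no expression values. A bin file named in the labels holds 16 kb bins stepped by 4 kb. Where scores rest on such bins, neighbouring pixels share reads, so pixels of a patch are not counted as separate measurements. The rule and the untreated scores given here use the deposited version trimmed by diagonal and cluster. The siRNA scores are the version trimmed by diagonal alone. In that diagonal version, the score equalled −10 times the base-2 logarithm of the deposited p-value within 0.1, wherever the p-value was positive. This places a score of 26 in that version at a p-value of 0.165. The relation was not checked for the version that the rule used. In any single library, 14.9% to 15.9% of scored bin pairs reached 26 in the diagonal version. Over all bin pairs scored in the 6 untreated libraries, 1740 of 191184 (0.91%) met the rule, of which 299 (17.2%) were in the classified table.

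The members lay mostly at the loci named for pluripotency genes. The Sox2 locus on chromosome 3 held 101 members, the Oct4 locus on chromosome 17 held 85, the Klf4 locus on chromosome 4 held 58 and the Nanog locus on chromosome 6 held 36. The Nestin locus held 10, the Olig1-Olig2 locus 9 and the gene desert 0. As a share of all looping pixels of a locus, members made up 20.1% at Klf4, 18.6% at Sox2, 15.5% at Nanog, 5.14% at Oct4, 1.7% at Nestin and 1.43% at Olig1-Olig2. The Oct4 locus, with 524 bins against 249 at Sox2, thus held many members among many other looping pixels.

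Joined by side or corner, the 299 members formed 38 loops, 13 of them at Oct4, 6 each at Sox2, Klf4 and Nanog, 4 at Olig1-Olig2 and 3 at Nestin. Member pixels were concentrated in few of them. The 8 loops with 10 or more pixels held 193 members (64.5%), and 7 loops were a single pixel. The median distance between the bins of a member was 104 kb, with quartiles of 68 and 348 kb and a range of 20 to 808 kb. Counted once per loop the median was 199 kb. The 2 largest loops, with 69 and 31 pixels, were short, at 72 and 68 kb, while 4 of the 8 loops with 10 or more pixels spanned 210 kb or more. Set beside other classes of the authors, the pixel median was 240 kb for the NPC only class and 88 kb for the constitutive class, and these differences were not tested.

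**Figure D1:**
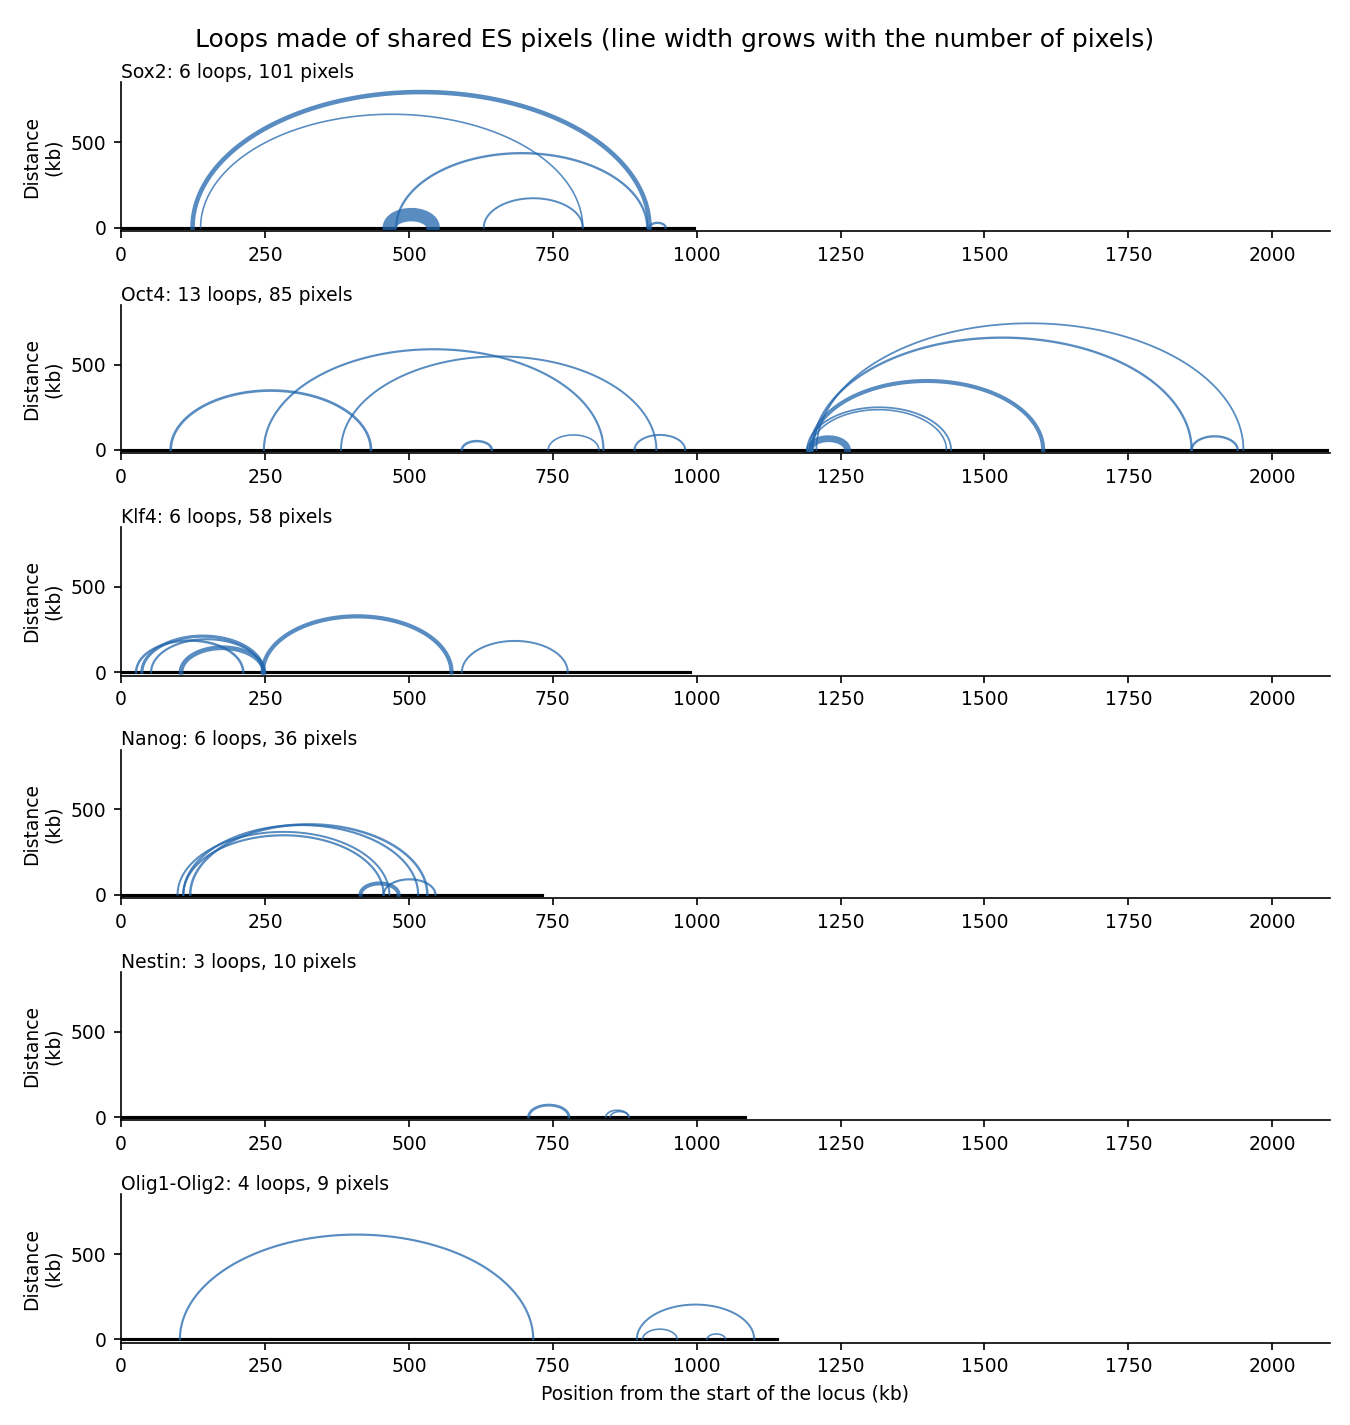
Arcs join the centres of the 2 anchors of each of the 38 loops, by locus, with the position from the start of the locus in kb on the horizontal axis and the anchor distance in kb as the height. Lines widen with the number of pixels: the 69-pixel Sox2 loop is the widest, and 6 arcs of the Oct4 locus leave from 1 stretch.

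Several loops met at the same stretch of DNA. Of the 183 bins that were an anchor of a member, those at chr17:35618392-35638391 in the Oct4 locus took part in 6 loops with 55 pixels. At Klf4, chr4:55139979-55155978 joined 4 loops with 48 pixels, reaching upstream in 3 and downstream in 1. At Sox2, chr3:35020880-35032879 joined 3 loops with 28 pixels. Coordinates are mm9 as in the files. Genes at the anchors are not named, since mm9 gene annotation was not used here. Anchors were also shared with other classes: 91 of the 183 bins (49.7%) were anchors of constitutive pixels, which is 13.2% of the 689 constitutive anchor bins, and 29 (15.8%) were anchors of NPC only pixels, 9.21% of their 315 bins. Sharing with pixels the authors classed as background was as frequent, with 97 bins (53.0%, and 10.7% of the 903 background bins), and 61 (33.3%) were shared with the 2i only class, 25.8% of its 236 bins. Other pixels of the class of 2i and serum shared 58 bins (31.7%), which is 56.3% of their 103 bins. These shares stand beside 1807 bins over all loci, of which 689 were constitutive anchors, 315 NPC only, 236 2i only and 903 background anchors. Whether sharing exceeded that of other bins was not tested.

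Over all members, the median score was 11.6 and 8.32 in the NPC libraries, 55.1 and 50.4 in the serum libraries and 54.6 and 60.5 in the 2i libraries. The rule fixes that these groups do not overlap. Klf4 members were the lowest in NPCs, with medians of 4.44 and 3.8, and Nestin members were among the highest, with 15.5 and 22.2. The lowest ES score among members was 26.25, at Klf4 in serum library 1, and the highest NPC score was 25.96, at Nestin. Just outside, 26 pixels missed the rule through 1 ES library, the nearest at 25.91, and 70 through 1 NPC library, the nearest at 26.19. Of the 299 members, 25 had a score within 2 of the threshold.

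**Figure D2:**
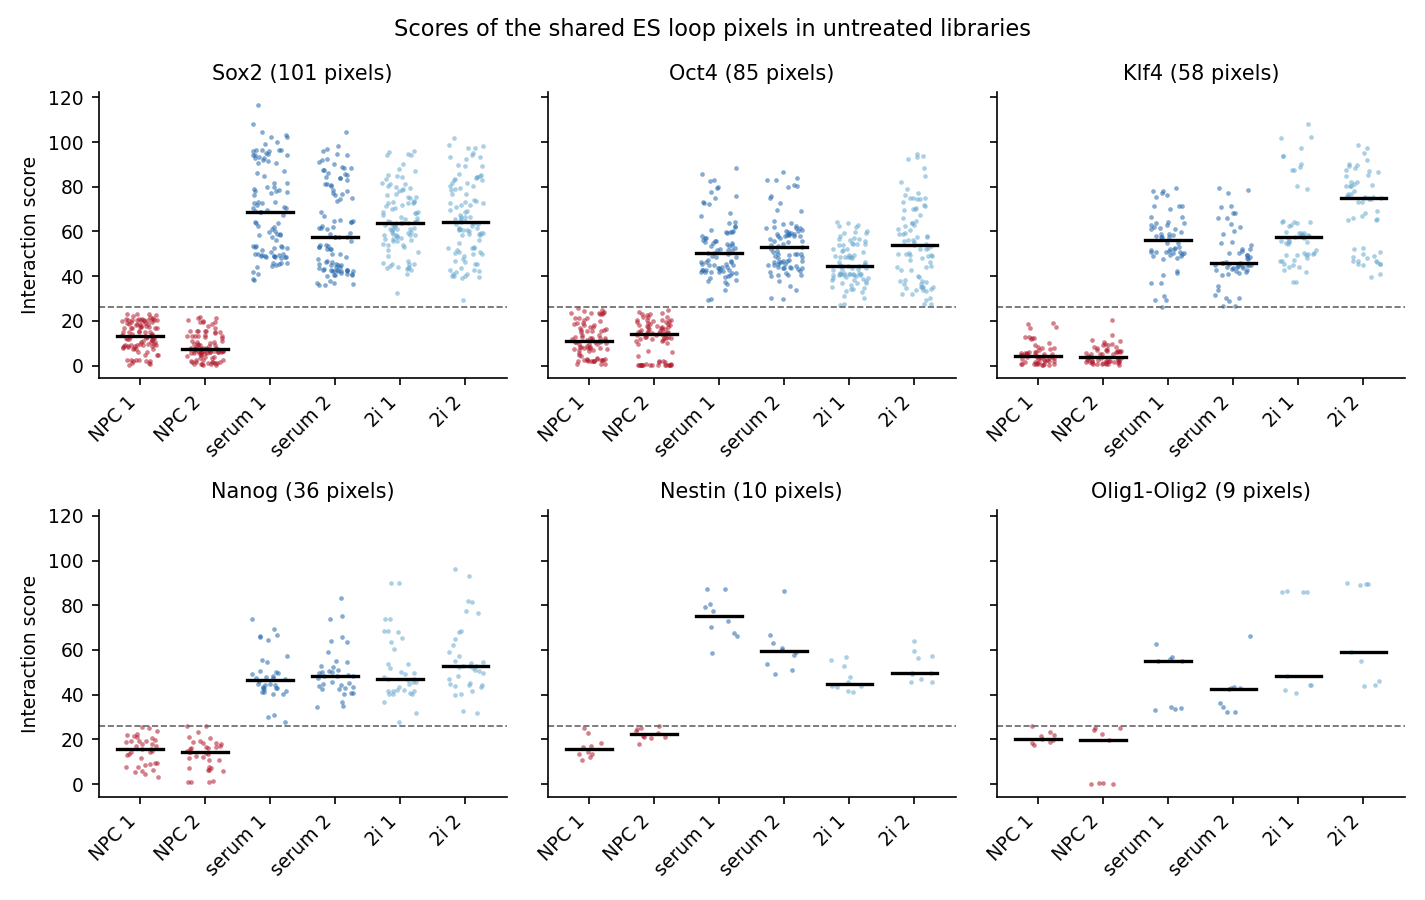
Interaction scores of the member pixels, 1 point per pixel, in the 2 NPC, 2 serum and 2 2i libraries at each locus, with the median as a bar and the threshold of 26 as a dashed line. NPC medians lie lowest at Klf4 (4.44 and 3.8), and serum and 2i medians part at Nestin and Klf4 in opposite directions.

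To set the scores beside the counts, the counts of each pair of 16 kb windows were added up and set over the library's own trend with distance at that locus, so that 1 is the level typical of that distance. Members fell into 75 window pairs. No primer pair was placed in 6 of them, which hold 13 member pixels, and 1 with 3 pixels did not pass the count filter, which left 68. Across these 68 the median ratio was 1.13 and 0.987 in NPCs, 2.1 and 1.95 in serum and 2.66 and 2.35 in 2i, where medians over all 15601 window pairs lay between 1.13 and 1.17. In all 4 ES libraries, 49 of the 68 lay above the trend (72.1%, against 43.2% of all window pairs) and 10 lay below it (14.7%, against 30.6%). A high score thus did not always mean a count above the trend of the locus.

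At the Sox2 locus, the largest loop of all, with 69 pixels, joined chr3:34544880-34604879 to chr3:34636880-34664879, a median of 72 kb apart. Its median score was 12.5 and 8.03 in NPCs, 73.1 and 66.8 in serum and 70.4 and 72.8 in 2i. The scores of serum and 2i thus overlapped. The ratio of counts to the trend over its 8 window pairs had medians of 1.72 and 1.34 in NPCs, 2.91 and 2.73 in serum and 7.78 and 5.64 in 2i. By this ratio NPCs were lowest and 2i highest. Ratios of serum and 2i did not overlap in 63.8% of all window pairs, so non-overlap by itself is common.

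The second Sox2 loop, 18 pixels, was a long one, joining chr3:34220880-34244879 to chr3:35020880-35032879 over a median of 794 kb. It scored 11.6 and 1.41 in NPCs, 49.9 and 42.7 in serum and 61.1 and 43.1 in 2i. Counts exist for 1 of its window pairs, with ratios of 1.2 and 0.736 in NPCs, 1.42 and 1.23 in serum and 2.72 and 2.11 in 2i. The 2 smallest Sox2 loops, of 3 pixels and 1, had ratios of 0.0422 to 0.189 in ES cells, far below the trend, and of 0.0927 to 0.267 in NPCs. In each of these loops both NPC libraries lay above all 4 ES libraries in this ratio, the reverse of the scores. This was so in 2 of the 68 member window pairs. The loop of 1 pixel rested on 4 to 22 counts per untreated library.

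At the Oct4 locus, the largest loop, 31 pixels, joined chr17:35618392-35634391 to chr17:35666392-35718391 at 68 kb. It scored 10.9 and 17 in NPCs, 45.5 and 55.6 in serum and 48.5 and 69.7 in 2i. Its 8 window pairs had median ratios of 0.408 and 0.488 in NPCs, 0.749 and 0.804 in serum and 1.23 and 0.973 in 2i. NPCs were lowest by score and by ratio. Serum and 2i overlapped by score, while by ratio 2i lay above serum. From the same upstream anchor, a 15-pixel loop reached chr17:36018392-36046391, 404 kb away, with scores of 2.32 and 0.302 in NPCs, 44.1 and 49.8 in serum and 38.7 and 36.3 in 2i. The 7-pixel loop between chr17:34510392-34522391 and chr17:34858392-34870391 went another way. Its scores were 23 and 13.6 in NPCs, 51.6 and 46.6 in serum and 41.3 and 55.7 in 2i, yet its ratios were 1.27 and 1.61 in NPCs, 3.25 and 3.46 in serum and 1.51 and 1.67 in 2i. In counts over the trend, NPCs and 2i overlapped there and serum stood above both.

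At the Klf4 locus, 48 of the 58 members used the stretch at chr4:55139979-55155978. The 19-pixel loop to chr4:54991979-55015978, 140 kb upstream, scored 3.65 and 6.29 in NPCs, 62.7 and 52 in serum and 57.1 and 74.8 in 2i. The 16-pixel loop to chr4:55463979-55483978, 328 kb downstream, scored 0.699 and 1.24 in NPCs, 51.4 and 43.9 in serum and 88.3 and 86.8 in 2i. The 10-pixel loop to chr4:54927979-54943978 scored 5.98 and 2.22 in NPCs, 50.8 and 45.6 in serum and 50.1 and 74.8 in 2i. In the downstream loop both 2i libraries stood above both serum libraries, while in the upstream loop of 19 pixels the 2 states overlapped.

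At Nanog the largest loop, 15 pixels, joined chr6:122597360-122613359 to chr6:122657360-122685359 and scored 19.2 and 16.3 in NPCs, 44.9 and 48.2 in serum and 46.6 and 51.2 in 2i. Its ratios to the trend were 2.17 and 2.33 in NPCs, 5.6 and 4.84 in serum and 4.64 and 4.46 in 2i, so that NPCs were also above the trend. At Nestin the largest loop, 8 pixels between chr3:87985088-88001087 and chr3:88057088-88069087, scored 13.8 and 22.2 in NPCs, 74 and 58.6 in serum and 46.7 and 53.1 in 2i. Its ratios were 2.06 and 2.17 in NPCs, 2.66 and 2.35 in serum and 2.15 and 1.84 in 2i, and NPCs overlapped 2i. At Olig1-Olig2 the largest loop, 4 pixels, scored 20.9 and 0.227 in NPCs, 33.8 and 33.4 in serum and 85.9 and 89.4 in 2i, at window pairs where no primer pair was placed.

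Which ES state had more contact at these loops was compared, since the rule asks the same of both states and sets no direction. The members were chosen by scores of these same 4 ES libraries, so the test is not independent of the rule. The rule also sets a lower limit on the score in both states. More member window pairs were lower than higher in serum, and most of those at Sox2 were lower. At Sox2, 13 of the 15 member window pairs tested fell in serum and 0 rose, with a median log2 fold change of -1.02. Over the 68 tested at all loci, 25 fell and 4 rose in serum, and the median was -0.42, against 0.05 over all window pairs. The test was edgeR's quasi-likelihood test over all 15601 window pairs with Benjamini-Hochberg adjustment. It called 21.9% of all window pairs, 10.2% as falls and 11.7% as rises. At the Sox2 locus itself 21.7% of 1947 window pairs were called and 10.2% fell. Without serum library 2 the members that fell came to 10, without 2i library 1 to 13 and without serum library 1 to 14. At Sox2 they came to 8 without serum library 2 and to 8 without 2i library 1. Leaving out the largest Sox2 loop left 17 that fell of 60 tested.

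Within Sox2 the largest fall was in the 69-pixel loop, between the windows that start at 34588880 and 34652880 on chromosome 3. Counts were 3158 and 3427 in serum and 4396 and 3617 in 2i, and the ratios to the trend 2.4 and 2.53 in serum and 8.55 and 5.33 in 2i. The serum libraries lay below both 2i libraries in this ratio, with a log2 fold change of -1.49 (SE 0.22, edgeR adjusted p = 0.00028). All 8 window pairs of this loop fell, by -0.55 to -1.49 on the log2 scale. They are neighbours in 1 patch, measured in the same libraries, so they are not 8 separate measurements. Mean scores of the same loop were 75 and 68.6 in serum and 70.3 and 72.6 in 2i, so the scores did not separate the states where the counts did.

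At Klf4, 5 of 12 tested fell and 0 rose (41.7%; over the locus 22.1% of window pairs were called and 11.5% fell). The largest Klf4 fall joined the windows starting at 54915979 and 55139979 on chromosome 4, which hold 1 member pixel. Its ratios were 1.3 and 1.13 in serum and 2.46 and 2.51 in 2i. NPCs, at 1.6 and 1.43, lay above serum there. In the same loop, the window pair with 9 member pixels had a log2 fold change of -0.49 (edgeR adjusted p = 0.066). The largest fall had a log2 fold change of -1.03 (SE 0.2, edgeR adjusted p = 0.0022). Without serum library 2 its adjusted p was 0.061.

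Oct4 members went both ways. Of 27 tested, 5 fell and 3 rose, which makes 29.6% called and 18.5% that fell, where 22.1% of all Oct4 window pairs were called and 10.4% fell. The largest rise joined the windows at 35630392 and 36286392 on chromosome 17, in the 5-pixel loop that leaves from the shared Oct4 anchor. Counts there were 3622 and 3509 in serum and 991 and 988 in 2i, ratios 25.5 and 24.8 in serum and 12.7 and 10.3 in 2i, and the log2 fold change 1.13 (SE 0.18, edgeR adjusted p = 0.00059). The largest fall left from the same upstream window, to the window at 36366392, with counts of 45 and 85 in serum and 165 and 107 in 2i. The ratios of this fall were 0.38 and 0.714 in serum and 2.53 and 1.33 in 2i. Its log2 fold change was -1.82 (SE 0.43, edgeR adjusted p = 0.0078), and its adjusted p was 0.18 without 2i library 1 and 0.085 without serum library 1. With all libraries in the fit, the same 16 kb window thus took part in a contact called higher in serum and in one called higher in 2i. The one higher in 2i rested on far lower counts.

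At Nanog, 2 of 9 tested fell and 1 rose, where 23.9% of all Nanog window pairs were called and 11.0% fell. The fall with the largest size, between the windows at 122637360 and 122717360 on chromosome 6, had ratios of 4.28 and 3.29 in serum and 8.48 and 6.36 in 2i (log2 fold change -0.97, edgeR adjusted p = 0.0062). Its adjusted p was 0.08 without 2i library 1 and 0.12 without serum library 2. The rise, between the windows at 122301360 and 122717360, had ratios of 2.72 and 3.26 in serum and 1.89 and 1.54 in 2i. Its log2 fold change of 0.81 had an edgeR adjusted p of 0.043, and 0.1 to 0.27 when any serum or 2i library was left out. None of the 2 Nestin and 3 Olig1-Olig2 window pairs tested passed, where 21.6% of all Nestin window pairs were called and 9.47% fell, and 21.2% of all Olig1-Olig2 window pairs were called and 9.15% fell.

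**Figure D3:**
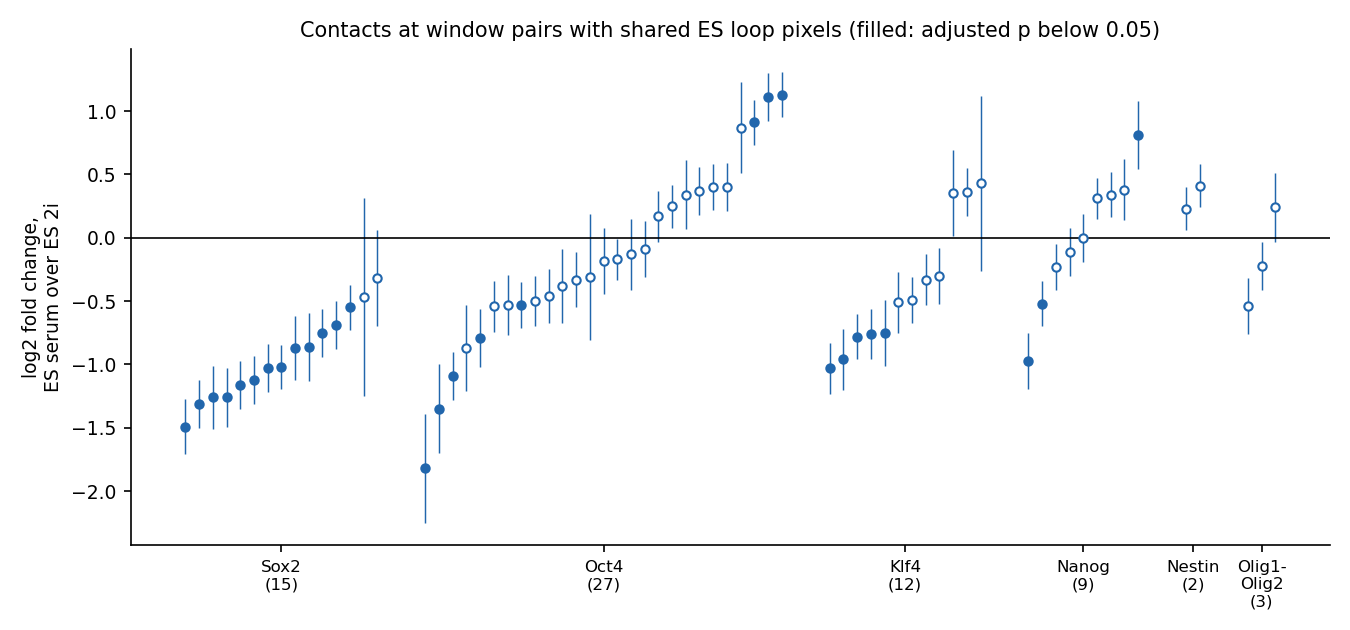
The log2 fold change of serum over 2i for each of the 68 member window pairs tested, sorted within each locus, with bars of 1 standard error and filled points for an adjusted p below 0.05. All 15 Sox2 points lie below 0, whereas Oct4 points run from -1.82 to 1.13.

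For NPCs against ES cells the same fit gives the sizes behind the rule, as a description. The members' median log2 fold change was -0.93 in NPCs against serum and -1.35 in NPCs against 2i, and -0.59 against serum and -0.73 against 2i with 32 kb windows. Over all window pairs the fit called 29.3% for NPCs against serum and 17.1% for NPCs against 2i. Calls among members are not counted, since the members were chosen on this contrast.

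CTCF occupancy was measured apart from the rule. Of the 183 anchor bins of members, 21 (11.5%) held a CTCF peak in the NPC list, 58 (31.7%) in the serum list and 58 (31.7%) in the 2i list, at an overlap of at least 1 bp. Over all 1807 bins of the loci the shares were 10.6% for NPC, 19.4% for serum and 20.5% for 2i. At anchors of the other looping pixels, taken by class, they ran from 11.0% to 22.9% for NPC and from 23.5% to 34.3% for serum. For 2i they ran from 23.0% to 37.1%. The class of serum and NPC was the highest in each list, so the members lay within the range of the classes. Of the 52 member anchor bins with a peak in both ES lists, 31 (59.6%) had no NPC peak. At anchors of the other pixels of the class of 2i and serum the same share was 40.7%. It was 53.7% at anchors of the 2i only class, 44.9% at serum only anchors and 29.9% at NPC only anchors. At constitutive anchors the share was 39.2% and over all bins 43.2%. With peaks of −log10 q of 20 or more it was 48.6% at member anchors, 50.0% at 2i only anchors and 39.0% over all bins, so members and the 2i only class were close. No peak in any list was found in 119 of the 183 member anchor bins (65.0%), against 77.8% of all bins. By class, it was 61.0% to 74.3% at anchors of the other looping pixels. With 1 ChIP library per condition none of these differences has a replicate check, and the lists differ in length, with 28860 peaks for NPC, 50185 for serum and 56138 for 2i.

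**Figure D4:**
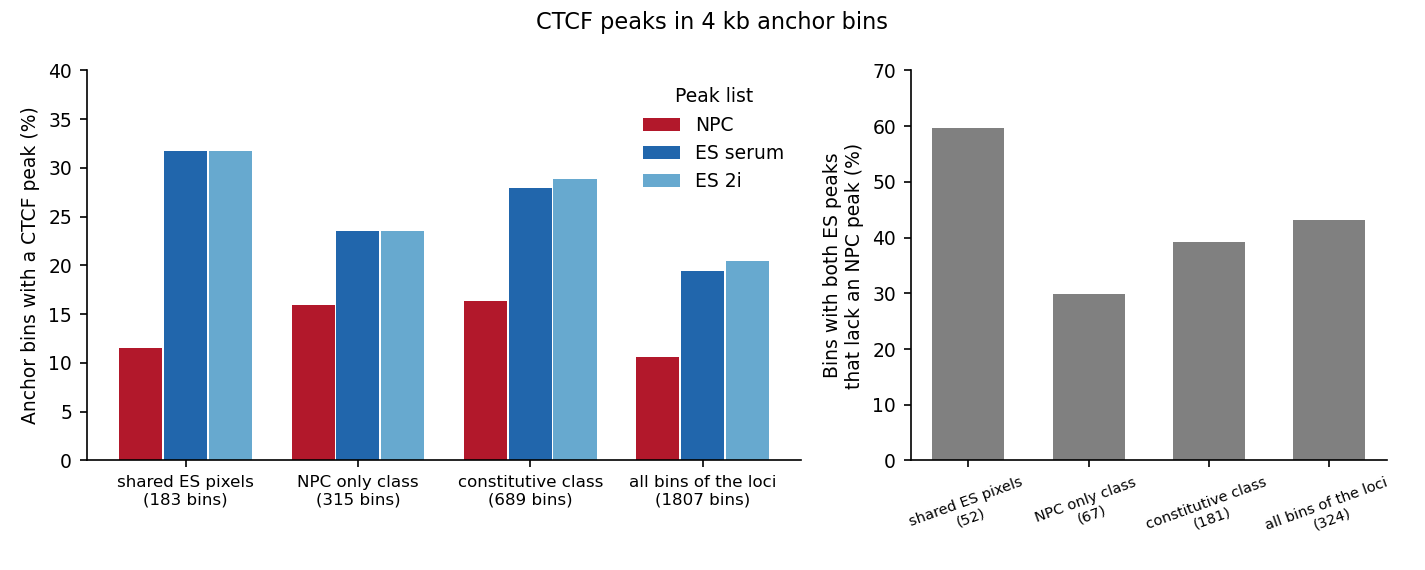
Left, the percent of 4 kb anchor bins with a CTCF peak in the NPC, serum and 2i lists, for the members, 2 other classes of the authors and all bins of the loci. Right, among bins with a peak in both ES lists (number in brackets), the percent that lacked an NPC peak, which was 59.6% at member anchors and 43.2% over all bins.

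Seen by pixel, 14.7% of members had a CTCF peak at 1 or both bins in the NPC list, 57.2% in the serum list and 52.5% in the 2i list. For the other looping pixels the shares were 31.3% for NPC, 49.5% for serum and 49.7% for 2i. The NPC share differed among classes, with 15.8% in the 2i only class, 20.1% in the serum only class, 36.4% in the constitutive class and 18.7% in background pixels. The low NPC share of the members was thus near that of the 2i only class. It was below the 31.3% of the other pixels of the class of 2i and serum. With bins widened to 16 kb the members' shares were 41.8% for NPC, 88.0% for serum and 90.0% for 2i, and with peaks of −log10 q of 20 or more 32.1% for serum and 44.5% for 2i. A peak at both bins was found for 1 member in the NPC list, 37 (12.4%) in the serum list and 33 (11.0%) in the 2i list, where other looping pixels had 9.96% in the serum list and 10.3% in the 2i list. The serum peaks at member anchors that lacked an NPC peak numbered 42 of 64 (65.6%) and had a median fold enrichment of 9.73, against 29 for the 22 that overlapped one. In all loci, 48.9% of serum peaks lacked an NPC peak. For 2i peaks at member anchors, 43 (65.2%) lacked one, with a median fold of 10.9, against 23.1 for those that overlapped, and in all loci 53.0% of 2i peaks lacked one. The authors' fold values differed alike over all loci, with medians of 11.6 for serum peaks without an NPC peak against 28.5 for those with one, and of 11.8 against 24.7 for 2i peaks.

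Loci differed in how much CTCF their members carried. At Oct4, 22.4% of members had a peak in the NPC list, 87.1% in serum and 85.9% in 2i, and all 13 Oct4 loops had a peak at an anchor in both ES lists, as did 6 in the NPC list. At Sox2 the shares were 6.93% in NPC, 42.6% in serum and 24.8% in 2i, and 3 of 6 loops had no peak in any list. At Klf4 they were 6.9% in NPC, 53.4% in serum and 53.4% in 2i. At Nanog they were 16.7% in NPC, 38.9% in serum and 50.0% in 2i. At Nestin 6 of 10 members had a peak in each of the 3 lists. Shares over all bins or other looping pixels of each locus were not computed. These values therefore cannot tell a trait of the members from one of their locus.

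The shared anchors differed in the same way. The Oct4 stretch with 6 loops held 1 NPC peak, 5 serum peaks and 5 2i peaks. Its NPC peak, at chr17:35621010-35621316 with a fold of 32.6, overlapped the strongest ES peaks there, with folds of 54.1 in serum and 41.8 in 2i. The Klf4 stretch with 4 loops held 0 NPC peaks and 1 peak in each ES list, at chr4:55150725-55151004 with a fold of 20.4 in serum and at chr4:55150772-55150994 with a fold of 21.5 in 2i. The Sox2 stretch with 3 loops held no peak in any list.

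In the 69-pixel Sox2 loop the upstream anchor held 1 NPC peak, 4 serum peaks and 4 2i peaks, and the downstream anchor held 0 in NPC, 3 in serum and 1 in 2i. Its upstream NPC peak, at chr3:34546716-34546913, had a fold of 10.3, and the peaks there had folds of 34.9 in serum and 18.1 in 2i. The strongest downstream peak, at chr3:34658843-34659228 in the serum list, had a fold of 28.1, and its 2i counterpart a fold of 15.5. In the 31-pixel Oct4 loop both anchors kept NPC peaks, 1 upstream and 4 downstream, beside 4 upstream and 11 downstream in serum and 4 upstream and 12 downstream in 2i. Of all 38 loops, 3 had a peak at both anchors in the NPC list, 13 in the serum list and 12 in the 2i list, and 6 had none in any list.

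The siRNA libraries, from NPCs and not used by the rule, cover the Sox2 and Klf4 loci. Many Sox2 members reached 26 in both libraries of a siRNA group and few Klf4 members did. The siRNA scores were trimmed by diagonal alone, and those of the rule by diagonal and cluster. The threshold of 26 is thus applied to unlike versions of the score, and the effect of this was not tested. Of the 101 Sox2 members, 43 (42.6%) reached 26 in both YY1 siRNA libraries and 62 (61.4%) in both control siRNA libraries. Of the 23206 Sox2 bin pairs below 26 in both untreated NPC libraries, 4.24% did so with YY1 siRNA and 4.88% with control siRNA. Of the 58 Klf4 members, 1 (1.72%) reached 26 in both YY1 siRNA libraries and 4 (6.9%) in both control siRNA libraries, beside 3.58% with YY1 siRNA and 4.96% with control siRNA of the 15825 such Klf4 bin pairs. At Sox2, pixels of the NPC only class reached 26 in both libraries in 18.7% with YY1 siRNA and 41.3% with control siRNA, and constitutive pixels in 20.0% with YY1 siRNA and 10.0% with control siRNA. The 17 other Sox2 pixels of the authors' class of 2i and serum were near the members, at 52.9% with YY1 siRNA and 58.8% with control siRNA.

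In single libraries, 48 and 71 of the 101 Sox2 members reached 26 with YY1 siRNA and 82 and 65 with control siRNA. Of the 58 Klf4 members, 4 and 20 did so with YY1 siRNA and 7 and 21 with control siRNA. Over all bin pairs scored in a siRNA library, 15.5% to 15.9% reached 26. No siRNA library reached 26 at 11 Sox2 members (10.9%) and 16 Klf4 members (27.6%). For background pixels that share was 93.9% at Sox2 and 93.7% at Klf4.

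The Sox2 count came mainly from the 69-pixel loop. Its median score was 27.9 and 47.9 with YY1 siRNA, 47.4 and 39.4 with control siRNA and, as above, 12.5 and 8.03 in untreated NPCs. Of its pixels, 36 reached 26 in both YY1 siRNA libraries, 53 in both control siRNA libraries and 35 in all 4. Of the other 32 Sox2 members, 7 did so with YY1 siRNA, 9 with control siRNA and 0 in all 4. The ratio of counts to the trend did not follow the score. Over the 8 window pairs of the loop its median was 1.61 and 1.66 with YY1 siRNA, 1.8 and 1.62 with control siRNA and 1.72 and 1.34 in untreated NPCs, below the 2.91 and 2.73 of serum and the 7.78 and 5.64 of 2i. The siRNA and untreated tables were normalized separately and their 3C templates differ (in situ for the siRNA libraries). Their scores also differ in trimming. Treatment, plating density, protocol and, for scores, trimming thus cannot be told apart between siRNA-treated and untreated NPCs.

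**Figure D5:**
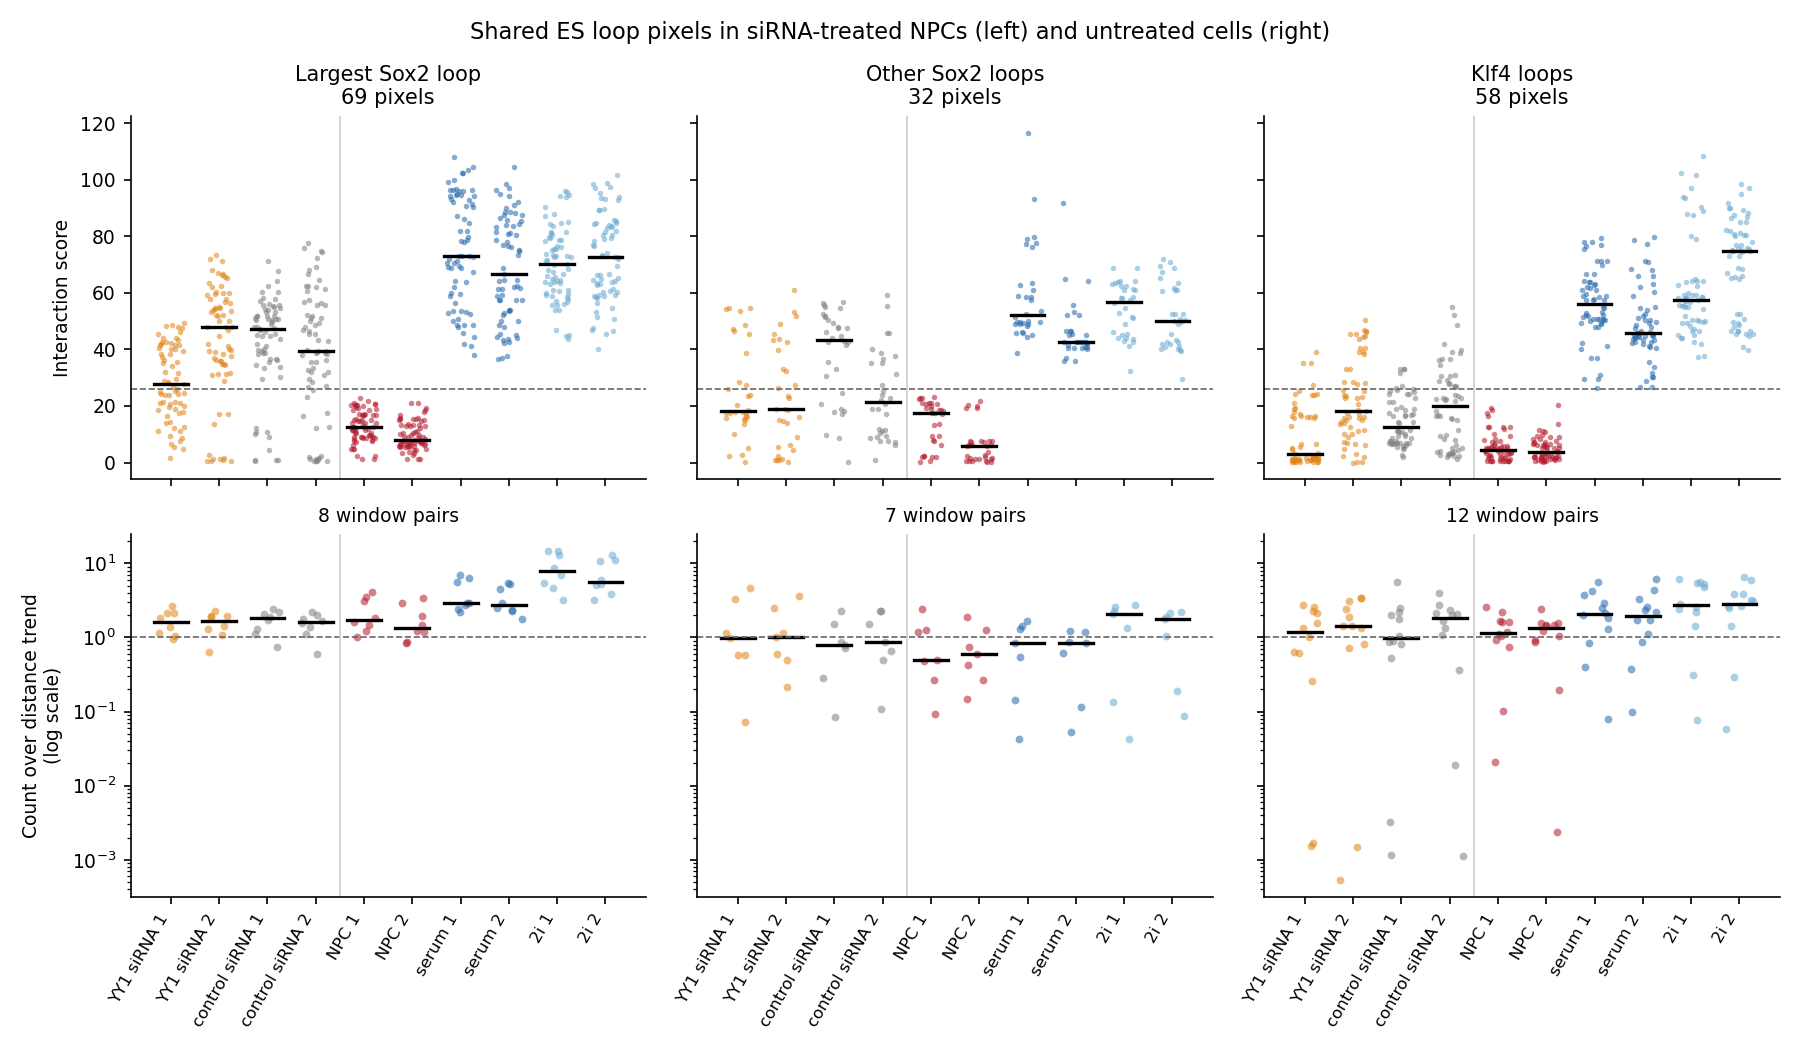
Upper row, interaction scores of the members (1 point per pixel) of the largest Sox2 loop, the other Sox2 loops and the Klf4 loops in each library, with the median as a bar and the threshold of 26 dashed; lower row, counts over the distance trend (log axis, 1 dashed) of their window pairs, where points near the bottom are window pairs with 0 or few counts. In the largest Sox2 loop the siRNA libraries score above untreated NPCs, while their ratios, with medians of 1.61 to 1.8, lie beside those of untreated NPCs.

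The members as a whole did not pass a test between YY1 siRNA and control siRNA. Over the Sox2 members the mean score was 32.2 with YY1 siRNA and 37.6 with control siRNA (exact two-sided permutation p = 0.667), and over the Klf4 members 15.8 with YY1 siRNA and 17.3 with control siRNA (exact two-sided permutation p = 1). With 2 libraries against 2 the smallest p such a test allows is 0.333. By edgeR, 0 of 3741 window pairs passed the adjusted threshold (0.0%), and so 0 of the 25 member window pairs tested out of 28. At an unadjusted p below 0.05 edgeR gave 375 window pairs (10.0%), 2 of them with members. The members' median log2 fold change was 0.02, against 0.06 over all. DESeq2 called 52 window pairs (1.39%), 1 of them with a member. Without YY1 siRNA library 2 edgeR called 17, and with a replicate block 74, each with 1 member window pair (0.451% of all without that library and 1.98% with the block).

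Scores of single loops lay apart between the siRNA groups in both directions, with 2 libraries a group. In counts over the trend, YY1 siRNA and control siRNA libraries did not overlap in 41.0% of all window pairs, and among the 25 with members 6 lay higher and 6 lower with YY1 siRNA. The 19-pixel Klf4 loop had median scores of 0.881 and 12.6 with YY1 siRNA and 21.3 and 34.3 with control siRNA. The 10-pixel Klf4 loop, which uses the same downstream anchor, had 17.7 and 40.5 with YY1 siRNA and 6.93 and 4.21 with control siRNA. The long Sox2 loop had 17.8 and 14.4 with YY1 siRNA and 47.8 and 10.9 with control siRNA, so those groups overlapped. In counts, the window pair with most pixels of the 19-pixel Klf4 loop had ratios of 0.255 and 0.712 with YY1 siRNA and 0.874 and 1.08 with control siRNA. Its log2 fold change was -1.01 (edgeR adjusted p = 0.54), and the other window pairs of that loop had -0.37 and -0.07. The window pair with most pixels of the 10-pixel loop had ratios of 2.13 and 3.4 with YY1 siRNA and 2.04 and 2.05 with control siRNA. Its log2 fold change was 0.43 (edgeR adjusted p = 0.74).

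The member window pair that DESeq2 called lies between the windows that start at 35020880 and 35036880 in the Sox2 locus on chromosome 3. It was singled out after its values were seen. Its ratios were 4.6 and 3.58 with YY1 siRNA and 2.27 and 2.29 with control siRNA. The edgeR log2 fold change was 0.84 (adjusted p = 0.14) and DESeq2's 0.7 (adjusted p = 0.0095). Under edgeR it also passed with a replicate block (0.83, adjusted p = 0.0012) and without YY1 siRNA library 2 (1.01, adjusted p = 0.039). It holds 1 member pixel.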

How the data were processed

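5C counts per primer pair were deposited by the authors for 10 libraries, as were interaction scores and p-values per bin pair. Per the submitters' processing notes, Bowtie, MACS2 and mm9 were used, whose versions are not stated there. The deposited CTCF peak lists give a fold enrichment (ratio) and a −log10 q per peak. How scores were made from counts is not stated. In the deposited tables, 29 columns of per-sample values with no sample here were not used.

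Members were taken by a score threshold of 26, and loops are members that touch by side or corner. Counts were summed over pairs of 16 kb windows. Window pairs that passed edgeR's expression filter were tested with edgeR 4.0.16 (quasi-likelihood, R 4.3.3), with an offset per library and locus from a loess trend of log count with distance (span 0.5, 0.5 added), and Benjamini-Hochberg adjustment at 0.05. Untreated and siRNA libraries were fitted apart. DESeq2 1.42.0, plain TMM scaling, no filter, 8 and 32 kb windows, a replicate block and leaving out each library were alternatives. Other values came from Python 3.11.15. The fit was tested on simulated data. Loops described one by one are the 10 with most pixels or the largest of their locus, with others named after their values were seen. Window pairs are the largest called rise and fall per locus. Members and lists were chosen with earlier results of these data known. Sequences and genes at the anchors are not given, as no genome or annotation of mm9 was used here.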

Additional observations from a re-analysis of the deposited data

How the results depend on the processing

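Same-numbered libraries did not deviate together (correlations of 0.021 to 0.085), so numbers were not taken to pair libraries. With a replicate block edgeR called 74 window pairs for YY1 siRNA against control siRNA, 4163 for serum against 2i, 5244 for NPC against serum and 3423 for NPC against 2i, and the calls of the window pairs named for serum against 2i did not change, while the Sox2 window pair singled out for YY1 siRNA against control siRNA passed only with the block (adjusted p = 0.0012), with DESeq2 (0.0095) and without YY1 siRNA library 2 (0.039), of the settings run at 16 kb. With 32 kb windows the members' median log2 fold change was -0.59 for NPC against serum and -0.73 for NPC against 2i. For YY1 siRNA against control siRNA, DESeq2 called 52, 32 kb windows 1, and leaving out a library 0 to 17. For serum against 2i, 8 kb windows gave 6504, 32 kb windows 1333, and leaving out a library 997 to 3948. Members that fell then numbered 10 to 27, and at Sox2 8 to 13. For NPC against serum, 8 kb windows gave 8645, 32 kb windows 1783, and leaving out a library 2285 to 4565. For NPC against 2i, 32 kb windows gave 1280 and leaving out a library 1294 to 2325. The median distance was 199 kb over loops. The share of members with a CTCF peak was 41.8% in NPC, 88% in serum and 90% in 2i at 16 kb anchors, and 32.1% in serum and 44.5% in 2i at −log10 q of 20. In siRNA libraries, at thresholds of 20 and 32, Klf4 members above threshold numbered 4 and 0 with YY1 siRNA and 13 and 0 with control siRNA. Leaving out a library gave 4 to 20 with YY1 siRNA and 7 to 21 with control siRNA at Klf4, and 48 to 71 with YY1 siRNA and 65 to 82 with control siRNA at Sox2. Without the largest Sox2 loop, an alternative chosen after seeing the data, 7 reached 26 with YY1 siRNA and 9 with control siRNA. Of the named window pairs, 11 combinations with a setting lost their call and 0 reversed. The cause of these shifts was not tested. YY1 siRNA library 1 was the shallowest, with 4419309 counts, and edgeR's biological coefficient of variation was 0.376 among siRNA libraries and 0.2 among untreated ones.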
